A study of Mus musculus with 33 samples.

Results

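The hippocampal transcriptome of untreated transgenic mice was set against the average of 2 other groups, untreated wild-type mice and transgenic mice given a drug, using 33 of the 33 arrays of the series, 11 a group. The contrast gave the vehicle Tg2576 mean the weight 1 and each of the other groups' means the weight -0.5. A gene can stand out in it when untreated transgenic animals lie away from both wild-type and drug-treated animals on the same side. A gene can also stand out when these animals lie far from only 1 of the other groups. Tg2576 mice carry human APP with the Swedish mutation driven by the prion promoter; the animals here were heterozygous males on a mixed SJL × C57BL/6J background, 20 weeks (5 months) old. Wild-type controls were littermates of the same age given vehicle, the vehicle Tg2576 animals had the transgene and vehicle, and the treated Tg2576 animals had the transgene and TO901317, a synthetic compound that activates liver X receptors (LXR), at 50 mg per kg per day. The design text gives 7 days of dosing by oral gavage and the treatment protocol 5 days, and this was not settled here; animals were killed 1 hour after the last dose. All 3 groups shared the vehicle, the background strain and perfusion with saline. RNA came from the right hippocampus, 1 animal an array, on MOE430 2.0 arrays. No wild-type group given the drug was analysed here.

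Neurons and glia make most brain cholesterol locally, since lipoprotein cholesterol does not cross the blood-brain barrier. The route runs from acetyl-CoA through mevalonate, farnesyl diphosphate and squalene to cholesterol, and its genes share a transcription factor, SREBP2, which is released from the endoplasmic reticulum when membrane sterol is low. LXR answers high oxysterol levels and raises cholesterol exporters such as Abca1 and Abcg1 together with Srebf1, the gene of the fatty acid regulator SREBP1c.

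Array signals were scaled by the depositors to one trimmed mean, and a difference below is on the log2(signal + 16) scale. Median signals ran from 19.5 to 28.9 over the 33 arrays. RNA integrity was read from Gapdh, as log2 of the signal at its 3' end over that at its 5' end, and this ratio was 0.11 and 0.079 in vehicle Tg2576 animals 3 and 4, -0.077 in animal 5 and no higher than -0.094 in wild-type and -0.11 in treated animals. The calls that were lost without these animals are given after the lists. The mouse App probe set read 3533 ± 179 in vehicle Tg2576, 3790.2 ± 401 in wild type and 3844 ± 281 in treated animals (mean and SD, n = 11 each), a contrast of -0.11 with adjusted p = 0.255; a mouse probe set is no check of the human transgene. Prnp, the mouse prion protein gene, differed by -0.045 (adjusted p = 0.66), and its probe set is no check of the transgene either.

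In vehicle Tg2576 hippocampus, 36 of 12760 genes (0.282%) differed from the mean of the other groups at a limma adjusted p under 0.05, 18 higher (0.141%) and 18 lower (0.141%). Enzymes of cholesterol synthesis led the higher genes, with 7 of the 18. The lower genes included the sterol exporters Abcg1 and Abca1, the clock gene Per3, the neuronal kinase gene Camk2a, the astrocyte glutamate transporter gene Slc1a2 and the thyroid hormone deiodinase gene Dio2. All of these differences were small: the 36 ran from 0.18 to 0.62 in size on the log2 scale, 0 reached 2-fold, and the highest fold was 1.54, in Ly6g6e. Before adjustment 1598 genes had p under 0.05, and 638 would do so if none differed. The median contrast over all genes tested was 0.0089.

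Of the 8 tested enzymes from acetoacetyl-CoA to squalene, 4 rose in vehicle Tg2576 and 0 fell, with a median contrast of 0.24. Hmgcs1 (probe set 1433443_a_at), the cytosolic HMG-CoA synthase that supplies the mevalonate route, had the smallest standard error of the 7. In vehicle Tg2576 its signal was 2305 to 2844 (median 2491), against 1856 to 2289 (median 2022) in wild type and 1756 to 2383 (median 2130.5) after treatment. All 11 vehicle Tg2576 animals lay above all 11 wild-type animals, and 8 of 11 lay above the highest treated animal. The contrast was 0.27 (SE 0.042, adjusted p = 0.000917), with 0.28 against wild type and 0.25 against treated animals. Idi1 (probe set 1451122_at), the isopentenyl diphosphate isomerase, had its larger difference from treated animals. Idi1 read 309 to 411 (median 356) in vehicle Tg2576, 253 to 353 (median 307) in wild type and 179 to 321 (median 280.4) in treated Tg2576. Vehicle and wild-type ranges overlapped, and 9 of 11 vehicle animals exceeded every treated one. The contrast of Idi1 was 0.30 (SE 0.058, adjusted p = 0.0084), with 0.23 against wild type and 0.37 against treated animals.

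Fdps and Fdft1 stand at the end of the squalene branch. The Fdps signal ran from 408 to 610 (median 468) in vehicle Tg2576, 276 to 400 (median 344) in wild type and 306 to 465 (median 409) in treated animals. Fdps, the farnesyl diphosphate synthase (probe set 1423418_at), had no overlap between vehicle Tg2576 and wild type, while treated animals lay between the groups. Its contrast was 0.36 (SE 0.059, adjusted p = 0.00113), made of 0.48 against wild type and 0.25 against treated animals. Fdft1 (probe set 1438322_x_at), the squalene synthase that commits farnesyl diphosphate to sterols, showed the same order. In vehicle Tg2576 its signal was 584 to 832 (median 657), against 396 to 526 (median 454) in wild type and 446 to 651 (median 572) after treatment. The Fdft1 contrast was 0.41 (SE 0.059, adjusted p = 0.00023), and the 2 differences behind it were 0.56 against wild type and 0.26 against treated animals. Their 95% intervals were 0.42 to 0.70 and 0.13 to 0.40. The members that did not pass were Mvk (0.21, adjusted p = 0.13), Mvd (0.20, 0.324), Pmvk (0.16, 0.309) and Ggps1 (-0.019, 0.93), the last of which makes geranylgeranyl diphosphate for protein prenylation and lies off the sterol route.

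Of the 10 tested enzymes from squalene to cholesterol, 3 rose and 0 fell, and all 10 contrasts were above 0, with a median of 0.21. Sqle, the squalene epoxidase and a rate-controlling step, rose most among them. Sqle read 502 to 703 (median 547) in vehicle Tg2576, 337 to 469 (median 408) in wild type and 323 to 538 (median 449.7) in treated Tg2576. The lowest vehicle Tg2576 animal was above the highest wild-type animal, and 6 of 11 were above the highest treated animal. Its contrast was 0.42 (SE 0.061, adjusted p = 0.00023), with 0.49 against wild type and 0.36 against treated animals (probe set 1415993_at). Nsdhl (probe set 1416222_at), which removes C4 carbons of the sterol nucleus, differed by 0.32 (SE 0.054, adjusted p = 0.00173). In vehicle Tg2576 its signal was 271 to 414 (median 336), against 212 to 288 (median 246) in wild type and 237 to 303 (median 289) after treatment. 9 of the 11 vehicle animals exceeded each of the other 22. Hsd17b7 (probe set 1457248_x_at), the 3-ketosteroid reductase of the same demethylation complex, was dim but narrow in spread. The Hsd17b7 signal ran from 131 to 174 (median 148) in vehicle Tg2576, 106 to 130.1 (median 122) in wild type and 111 to 144 (median 123) in treated animals. Here too the vehicle animals lay above every wild-type animal, and the contrast was 0.26 (SE 0.044, adjusted p = 0.00207).

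The remaining enzymes of this stretch did not pass. Msmo1, the C4 methyl oxidase, had a contrast as large as that of Fdft1, 0.41, but a wide spread (SE 0.12, adjusted p = 0.12), with one wild-type animal at 1085 and a wild-type median of 533. Cyp51, the lanosterol demethylase, gave 0.19 (adjusted p = 0.117), Sc5d 0.23 (0.173), Dhcr7 0.17 (0.274), Lss 0.15 (0.424), Tm7sf2 0.10 (0.731) and Ebp 0.086 (0.399). For Cyp51 and Sc5d the larger difference was from treated animals, 0.26 and 0.35, against 0.11 and 0.12 from wild type.

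**Figure D1:**
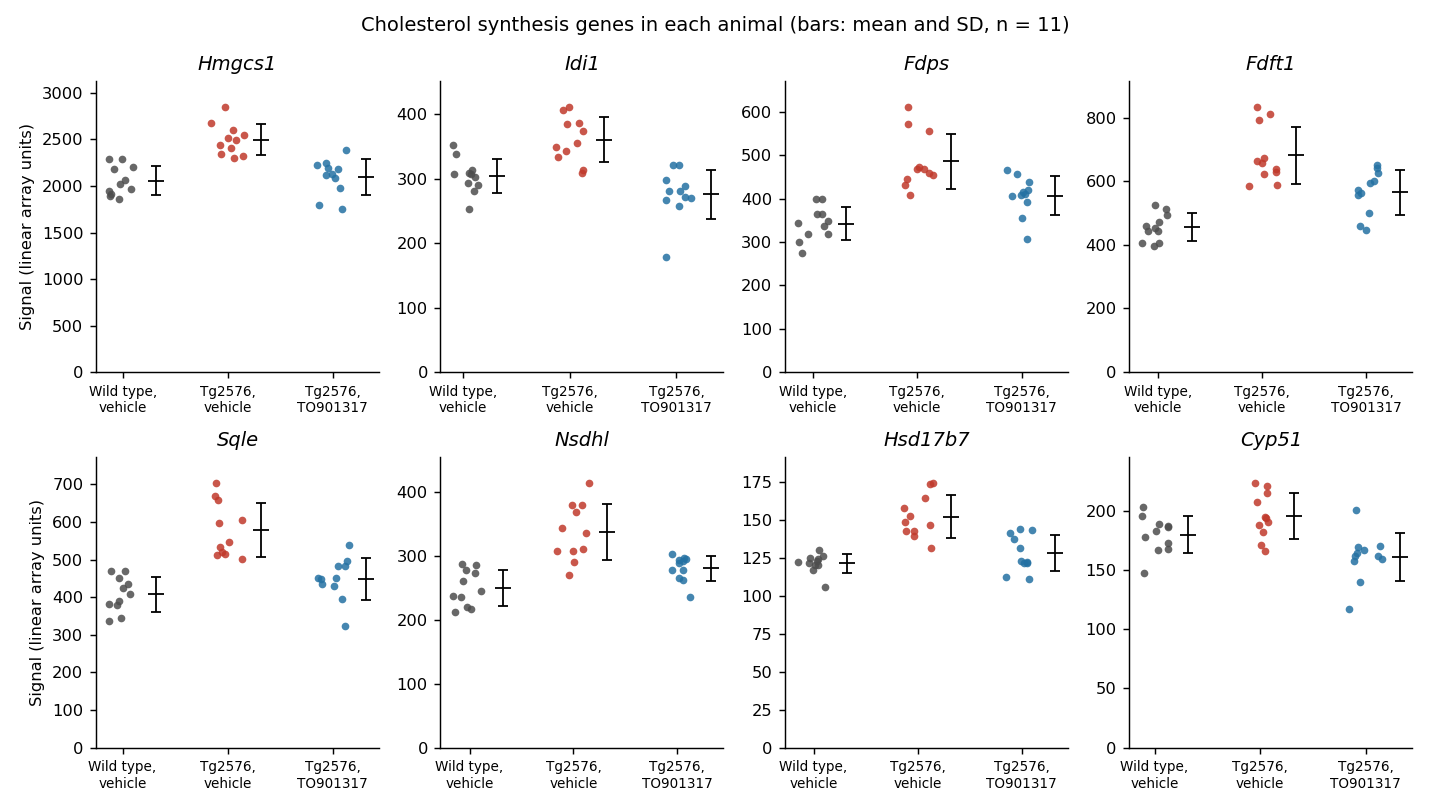
Signals (linear array units, vertical axis from 0) of 8 cholesterol synthesis genes in each animal of the 3 groups. The genes run in pathway order except Cyp51, which acts before Nsdhl and Hsd17b7 but is drawn last. Points are animals and bars the mean and SD (n = 11). In Hmgcs1, Fdps, Fdft1, Sqle and Hsd17b7 all 11 vehicle Tg2576 points lie above all 11 wild-type points, while treated animals overlap the vehicle group; Cyp51 did not pass the contrast.

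Counted over all 12760 genes, 5 (0.0392%) had every vehicle Tg2576 animal above every wild-type animal, and these were Hmgcs1, Fdps, Fdft1, Sqle and Hsd17b7. Against the treated animals the 7 passing enzymes overlapped, with 6 to 9 of 11 vehicle animals above all of the other 22. No gene of the 12760 (0%) had all 11 vehicle animals outside the range of the other 22. Averaged over the 18 enzymes of both lists after each gene was centred on its mean, an animal's level was 0.16 ± 0.094 in vehicle Tg2576, -0.099 ± 0.077 in wild type and -0.058 ± 0.12 in treated animals (log2, mean and SD, n = 11 each). The lowest vehicle animal, number 11, was at -0.020 and the highest wild-type animal, number 5, at 0.033, so these averages overlapped slightly.

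Genes that sense sterol or bring it into the cell did not rise as a list: 0 of 10 tested members passed, and the median contrast was -0.021. Stard4, a sterol carrier, was at 0.34 (adjusted p = 0.117), Insig1, which holds SREBP in the endoplasmic reticulum, at 0.19 (0.165), and Srebf2, the SREBP2 gene, at 0.17 (0.225). In these 3 the difference from wild type was the larger, 0.48, 0.31 and 0.26, against 0.21, 0.068 and 0.086 from treated animals. Insig2 lay below 0 (-0.12, 0.36). The others, Scap, Mbtps1, Mbtps2, Npc1, Npc2 and Mylip, lay between -0.046 and 0.031, with adjusted p of 0.837 or more. Over the 3 sterol lists together 28 genes were tested, 7 rose, 0 fell and the median was 0.18, beside 18 of 12760 higher and a median of 0.0089 over all genes. These lists were chosen with results of the same arrays known, so the counts describe them and are no independent test.

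**Figure D2:**
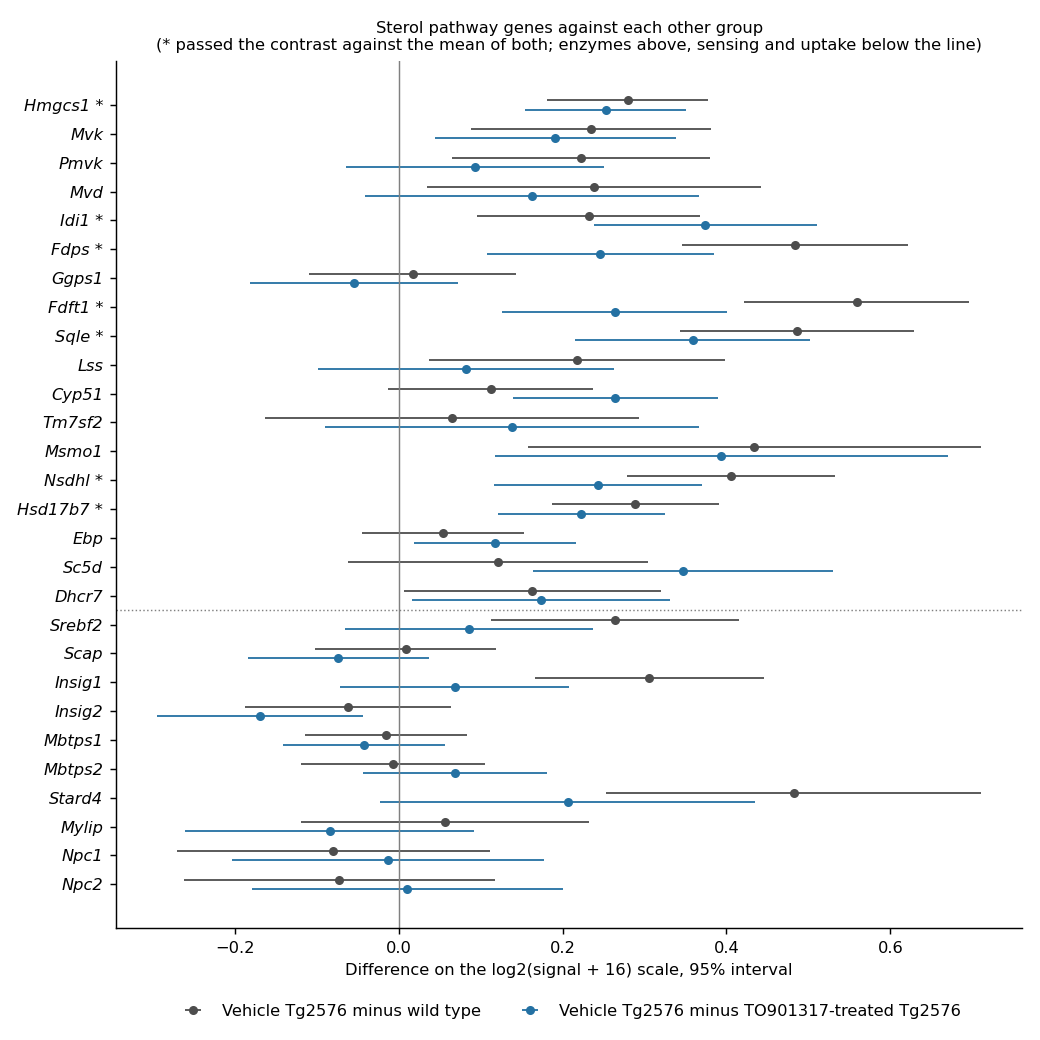
Log2 difference of vehicle Tg2576 from wild type (grey) and from treated Tg2576 (blue) with 95% intervals for 28 sterol genes; enzymes run in pathway order above the dotted line, sensing and uptake genes below, and an asterisk marks the 7 that passed the contrast against the mean of both. In the 7 marked genes both intervals lie above 0; Fdft1 is at 0.56 and 0.26, and Ggps1 at 0.017 and -0.055.

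The promoters of the 7 passing sterol enzymes were read for known motifs. Whether these enzymes vary together from animal to animal was not tested. RefSeq promoters (GRCm38.p6, 250 bases before to 50 bases after the annotated start) matched 4 of the 7, and they are printed on the gene's strand with CCAAT (or ATTGG, its reverse complement) and the sterol regulatory element TCACNCCAC in capitals:
Hmgcs1 (chr13:119690101-119690400, plus strand): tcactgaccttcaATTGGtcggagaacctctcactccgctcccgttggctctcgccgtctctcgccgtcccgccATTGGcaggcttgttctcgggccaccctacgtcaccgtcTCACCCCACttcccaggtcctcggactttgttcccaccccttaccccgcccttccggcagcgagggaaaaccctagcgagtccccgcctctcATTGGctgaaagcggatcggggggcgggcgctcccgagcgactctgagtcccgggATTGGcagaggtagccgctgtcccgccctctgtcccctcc
Idi1 (chr13:8885356-8885655, plus strand): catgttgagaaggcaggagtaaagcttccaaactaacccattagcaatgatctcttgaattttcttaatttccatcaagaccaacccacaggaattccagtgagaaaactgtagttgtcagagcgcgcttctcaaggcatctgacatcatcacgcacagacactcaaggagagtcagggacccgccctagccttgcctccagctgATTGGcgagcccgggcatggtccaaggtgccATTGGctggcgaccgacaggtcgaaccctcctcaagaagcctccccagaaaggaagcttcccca
Nsdhl (chrX:72918271-72918570, plus strand): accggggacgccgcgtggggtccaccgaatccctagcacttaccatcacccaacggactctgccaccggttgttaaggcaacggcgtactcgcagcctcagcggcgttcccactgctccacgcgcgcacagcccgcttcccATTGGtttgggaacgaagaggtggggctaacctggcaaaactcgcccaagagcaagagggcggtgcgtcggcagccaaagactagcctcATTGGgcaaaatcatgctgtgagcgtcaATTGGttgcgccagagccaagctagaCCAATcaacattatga
Hsd17b7 (chr1:169969156-169969455, minus strand): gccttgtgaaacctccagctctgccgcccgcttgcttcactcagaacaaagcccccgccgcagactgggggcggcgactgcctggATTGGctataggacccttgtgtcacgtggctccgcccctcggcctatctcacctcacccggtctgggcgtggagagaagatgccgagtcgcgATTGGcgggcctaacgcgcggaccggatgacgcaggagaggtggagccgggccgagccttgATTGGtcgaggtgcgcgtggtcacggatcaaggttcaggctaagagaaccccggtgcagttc
CCAAT, read by NF-Y, was present in 4 of 4, against 41.1% of the 27025 genes of the promoter table, both strands searched; neither motif contains the other. GGGCGG, an Sp1 box, was also present in 4 of 4, against 38.2% of all genes. TCACNCCAC, which SREBP binds, was found in 1 of 4, in Hmgcs1 at 137 bases before the start, against 1.44%. The palindrome CACGTG was in 1 of 4, Hsd17b7, against 8.09%. Of the 28 tested sterol genes 23 had a promoter, and among these CCAAT was present in 20 (87%), GGGCGG in 20, CACGTG in 5 and TCACNCCAC in 1. These are letter matches in a window of fixed length, not binding sites.

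A gene passes this contrast whether treated animals sit at the wild-type level or beyond it, so treated minus wild type was read for the 36. With equal groups the estimate of that difference is not fixed by the choice made on the contrast. Its p-value and interval still share each gene's spread estimate with that choice. Over all genes, 46 (0.361%) passed treated minus wild type, and among the 36, 3 did. Before adjustment 10 of the 36 had a limma p under 0.05 for this difference. Tdo2 (-0.40), Abcg1 (0.23), Cyp2d22 (0.22) and Cbln2 (0.22) were among these but fell short of the adjusted limit. The share of all genes at the unadjusted limit is not given here, so that count is a description of the 36 alone. The 95% intervals of the 36 had a median half-width of 0.14, so a smaller remaining difference could not be seen for most genes. Larger differences could also miss the adjusted limit, so not passing does not show a return to the wild-type level. Among the 18 higher genes the treated-minus-wild-type values ran from -0.17 to 0.29 with a median of 0.022, and among the 18 lower genes from -0.56 to 0.55 with a median of -0.020. For 20 of the 36 the value was under 0.1 in size.

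In the 7 cholesterol enzymes treated animals lay above wild type by a median of 0.13. Fdft1 passed that comparison, at 0.29 (SE 0.068, adjusted p = 0.0398): treated animals held a level between wild type and vehicle Tg2576. Fdps was at 0.24 (adjusted p = 0.137), Nsdhl at 0.16 (0.358) and Sqle at 0.13 (0.6), all short of the limit. Hmgcs1 was at 0.027 (95% interval -0.071 to 0.13), Hsd17b7 at 0.066 (-0.036 to 0.17), and Idi1 lay on the other side of wild type at -0.14 (-0.28 to -0.0066).

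The other genes passing both were Abca1 and Dio2, and in each the contrast came from 1 of the groups. Abca1, the exporter that loads cholesterol on apolipoproteins, read 336 to 675 (median 485) in treated animals. Its range was 278 to 345 (median 306) in vehicle Tg2576 and 269 to 448 (median 320.5) in wild type. All vehicle animals lay within the wild-type range, and 8 of 11 lay below every treated animal; the log2 differences were -0.053 against wild type and -0.61 against treated animals, and treated minus wild type was 0.55 (adjusted p = 0.000137). Dio2, the deiodinase that makes active thyroid hormone in glia, was the reverse case. Dio2 read 152 to 268 (median 222) in vehicle Tg2576, 257 to 470.4 (median 313) in wild type and 185 to 249.9 (median 224) in treated Tg2576. Here both Tg2576 groups lay below most wild-type animals, with -0.62 against wild type and -0.062 against treated animals, and treated minus wild type was -0.56 (adjusted p = 0.000333).

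**Figure D3:**
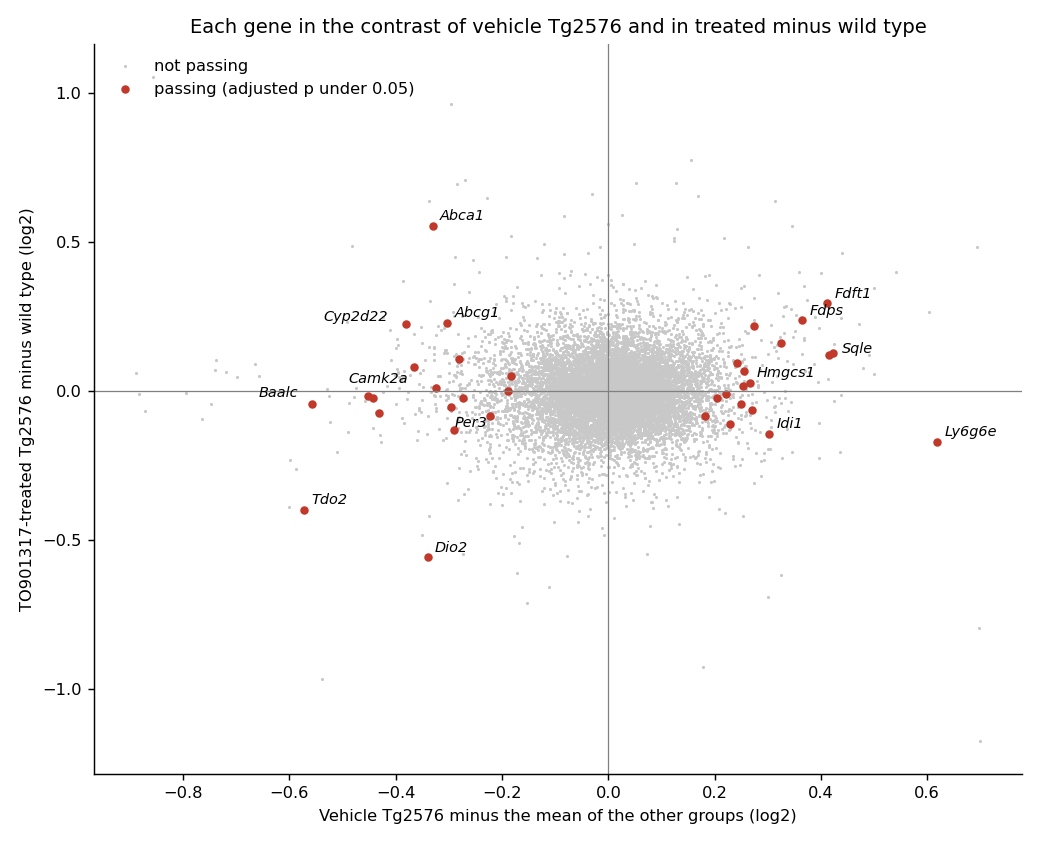
Each point is 1 of 12760 genes; the horizontal axis is vehicle Tg2576 minus the mean of the other groups and the vertical axis treated Tg2576 minus wild type, both as log2 differences. Red points are the 36 that passed the horizontal contrast. On the vertical axis 20 of them are under 0.1 in size, and 3 passed that comparison, Abca1 at 0.55, Fdft1 at 0.29 and Dio2 at -0.56. Tdo2 is at -0.40.

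Of 16 tested LXR receptor and target genes, 2 fell and 0 rose, with a median of -0.064. Abcg1, which moves cholesterol to lipoprotein particles, was below both groups, unlike Abca1. The Abcg1 signal ran from 212 to 305 (median 269) in vehicle Tg2576, 257 to 359 (median 308) in wild type and 297 to 432 (median 349.9) in treated animals. 10 of 11 vehicle animals lay below every treated animal but 3 below every wild-type animal. The contrast was -0.30 (SE 0.054, adjusted p = 0.0043), with -0.19 against wild type and -0.42 against treated animals; the difference from wild type alone had an adjusted p of 0.187. A dimmer Abcg1 probe set gave -0.26. Apoe, the main brain apolipoprotein, was at -0.20 (adjusted p = 0.16), from -0.15 against wild type and -0.25 against treated animals. Of 20 fatty acid synthesis genes 0 passed. Srebf1 was at -0.28 (adjusted p = 0.083), a value carried by -0.63 against treated animals beside 0.063 against wild type.

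Among the other genes that rose, Ly6g6e, which encodes a small GPI-anchored protein of the Ly6 family, had the highest contrast, 0.62 (SE 0.12, adjusted p = 0.0084). In vehicle Tg2576 its signal was 28.7 to 116 (median 47.3), against 25.4 to 46.6 (median 34.2) in wild type and 17.0 to 41.3 (median 31.2) after treatment. Vehicle animals 7 and 10 were the highest, and the lower vehicle animals overlapped both other groups. S100a10, an annexin A2 partner also listed with reactive astrocyte genes, rose by 0.41 (SE 0.090, adjusted p = 0.0294). S100a10 read 131 to 221 (median 154) in vehicle Tg2576, 75.2 to 145 (median 119.5) in wild type and 74.0 to 162 (median 139.9) in treated Tg2576. 8 of 11 vehicle animals exceeded all wild-type animals and 5 all treated ones. It was 1 of 10 tested reactive astrocyte genes to pass, and Gfap was at 0.17 (adjusted p = 0.541). All 10 lay above 0, with a median of 0.13. Over all genes tested 6916 of 12760 lay above 0, with a median of 0.0089.

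Neuronal genes stood on both sides. Cbln2, a secreted synapse organizer, rose by 0.27 (SE 0.061, adjusted p = 0.0305), with signals of 72.8 to 101 (median 87.7) in vehicle Tg2576, 47.8 to 75.1 (median 60.8) in wild type and 60.7 to 91.2 (median 75.9) in treated animals. Rgs4, a brake on G protein signalling, rose by 0.24 (SE 0.049, adjusted p = 0.0161), and 8 of 11 vehicle animals were above all wild-type animals. Prss12, the neuronal protease neurotrypsin, rose by 0.25 (SE 0.057, adjusted p = 0.0363). Vxn, a neurogenesis-linked gene, rose by 0.22, from 0.22 against wild type and 0.23 against treated animals. The remaining genes that rose were Ttc9c (0.27), Tmem169 (0.25), Mrpl36, a mitochondrial ribosomal protein gene (0.23), Polr1d, a subunit shared by RNA polymerases I and III (0.20), and Fam98a (0.18).

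Camk2a, the alpha subunit of the calcium- and calmodulin-dependent kinase II of excitatory synapses, fell by 0.44 (SE 0.091, adjusted p = 0.0173). The Camk2a signal ran from 1328 to 3119.9 (median 2512) in vehicle Tg2576, 2731 to 4169 (median 3044) in wild type and 2662 to 3589.6 (median 3174) in treated animals. 7 of 11 vehicle animals lay below all other 22, and the lowest were animals 3 and 4, those with the high Gapdh ratio, at 1328 and 1630.2. Without these animals the contrast was -0.30 (adjusted p = 0.0483), and without animals 3, 4 and 5 it was -0.26 (adjusted p = 0.076), so the call was lost. The 4 dimmer Camk2a probe sets also lay below 0, from -1.01 to -0.11. Baalc, a lipid-raft protein of the forebrain that interacts with this kinase, fell by 0.56 (SE 0.12, adjusted p = 0.0225). Baalc read 58.3 to 139 (median 119) in vehicle Tg2576, 124 to 274 (median 142) in wild type and 130 to 289 (median 157) in treated Tg2576. The wild-type and treated groups each had high animals that set their upper ends, and no vehicle animal read above 139. Without vehicle animals 3 and 4 the Baalc contrast was -0.52 with adjusted p = 0.0744.

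Adcy1, the calcium-stimulated adenylyl cyclase, differed by -0.22 (SE 0.052, adjusted p = 0.0423) and Ppp1r16b, a regulatory subunit of protein phosphatase 1, by -0.29 (SE 0.060, adjusted p = 0.0161). In vehicle Tg2576 the Ppp1r16b signal was 537 to 889 (median 667), against 738 to 1146 (median 826) in wild type and 683 to 897 (median 815) after treatment. Of 21 tested synaptic genes 1 rose (Cbln2) and 1 fell (Camk2a), with a median of -0.038. Tdo2, tryptophan dioxygenase, a marker of dentate granule cells, had the largest fall, -0.57 (SE 0.11, adjusted p = 0.0106). Tdo2 read 15.6 to 65.7 (median 33.3) in vehicle Tg2576, 50.2 to 102 (median 74.1) in wild type and 32.3 to 74.4 (median 56.5) in treated Tg2576. Treated animals lay between the other groups, and the differences were -0.77 against wild type and -0.37 against treated animals. It was the 1 of 13 dentate gyrus genes to pass; a dim other Tdo2 probe set was at 0.012.

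**Figure D4:**
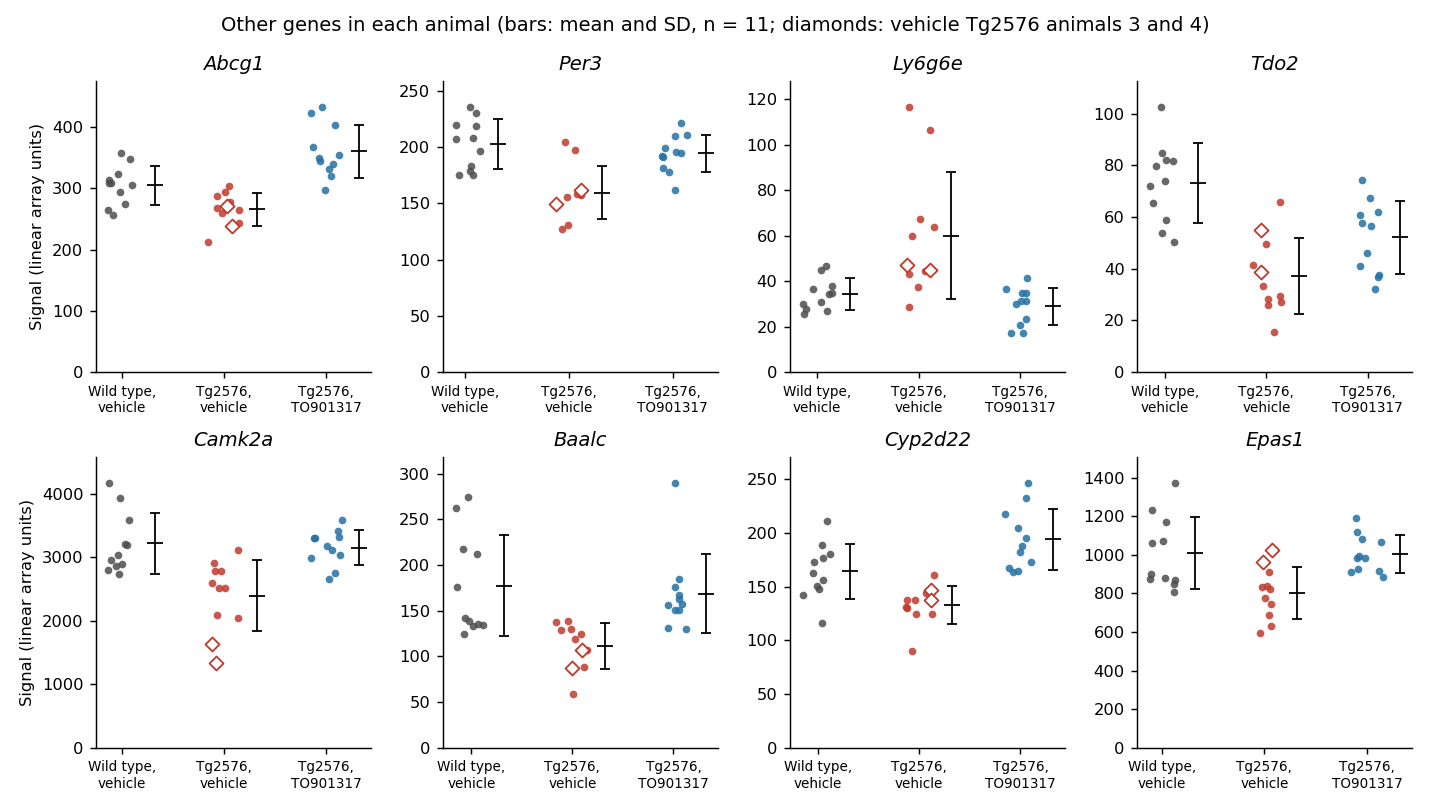
Signals (linear array units, vertical axis from 0) of 8 further passing genes in each animal; bars are the mean and SD (n = 11) and open diamonds vehicle Tg2576 animals 3 and 4, whose Gapdh 3' to 5' ratio was high. The diamonds are the lowest points in Camk2a and lie within the vehicle group in Abcg1, Per3 and Cyp2d22.

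Per3, a period gene of the circadian clock, fell by 0.30 (SE 0.057, adjusted p = 0.0084). In vehicle Tg2576 its signal was 127 to 205 (median 158), against 175 to 235 (median 208) in wild type and 162 to 222 (median 194) after treatment. 9 of 11 vehicle animals lay below all other 22, while the other 2 lay near the middle of both groups. The differences were -0.32 against wild type and -0.27 against treated animals, and treated minus wild type was -0.053 (95% interval -0.19 to 0.080). It was the 1 of 18 tested clock genes to pass. The clock members next to it by p, named after their values were seen, were Dbp (-0.22, adjusted p = 0.117), Cry1 (-0.32, 0.152), Nfil3 (0.30, 0.207) and Per2 (-0.18, 0.215). Time of killing by animal was not analysed here.

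Several lower genes are glial or vascular. Slc1a2, the main glutamate transporter of astrocytes, fell by 0.27 (SE 0.063, adjusted p = 0.0381). The Slc1a2 signal ran from 2184 to 3072 (median 2546) in vehicle Tg2576, 2558 to 3812 (median 3136) in wild type and 2513 to 3749.6 (median 2949) in treated animals. In 17 tested astrocyte markers 1 passed, 15 lay below 0 and the median was -0.13. The summed signal of these 17 ran from 14149 to 16416 in vehicle Tg2576, 14708 to 18750.2 in wild type and 15289.9 to 19031 in treated animals, so the groups overlapped. In these bulk samples the number of astrocytes and the astrocyte RNA per cell cannot be told apart, and neither was tested. A dimmer Slc1a2 probe set was at 0.23, against the direction of the bright one. Epas1, the hypoxia-regulated factor HIF-2 alpha, high in endothelium and astrocytes, fell by 0.33 (SE 0.075, adjusted p = 0.0399), with -0.32 against wild type and -0.33 against treated animals. Of 17 endothelial and barrier genes 0 passed, with a median of -0.14 and a summed signal of 3600 to 4755 in vehicle Tg2576, 3560.3 to 5750 in wild type and 3925 to 5207 in treated animals.

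Cyp2d22, a cytochrome P450, fell by 0.38 (SE 0.070, adjusted p = 0.00556). Cyp2d22 read 90.3 to 161 (median 137) in vehicle Tg2576, 116 to 211 (median 163) in wild type and 163 to 246 (median 188) in treated Tg2576. All 11 vehicle animals lay below all 11 treated animals, which held for 2 of 12760 genes (0.0157%), the other being Srebf1, while 1 lay below every wild-type animal. Hspa2, a heat shock protein gene, was at -0.37 (adjusted p = 0.0305) and was 1 of 15 heat shock genes to pass; without vehicle animals 3 and 4 it was at -0.30 with adjusted p = 0.152. 1500009C09Rik was at -0.43, and at -0.30 (adjusted p = 0.193) without those animals. The remaining lower genes were Chd4, a nucleosome remodeller (-0.28), Dst, the cytolinker dystonin (-0.18), Numa1, a spindle pole protein (-0.19), and Hps6, of lysosome-related organelle biogenesis. Hps6 was at the low end of the array: its mean signal was 8.28 ± 4.96 in vehicle Tg2576, below the filter limit of 13.3, against 17.4 ± 6.13 in wild type and 16.7 ± 4.75 in treated animals (n = 11 each). It passed the filter through those groups, and its contrast depended on the pseudocount, -0.45 at 16, -1.09 at 1 and -0.17 at 64, so its size is not settled.

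Markers of tissue next to the hippocampus were read beside these genes. Of 16 tested meningeal and fibroblast genes 0 passed, 15 lay above 0 and the median was 0.35. Their summed signal was 1201 to 3953 in vehicle Tg2576, 953 to 3749.8 in wild type and 949.8 to 3007 in treated animals. In 13 thalamus and striatum genes 0 passed and the median was 0.15, with sums of 1261 to 2084, 1225 to 1646 and 1358 to 1702 in the same order. Choroid plexus genes (13 tested, 0 passed, median -0.12) ran from 316 to 8255 in vehicle, 538 to 11779 in wild-type and 1089 to 9261 in treated animals. Blood cell genes had 0 tested members, so the level of blood RNA was not read here. Myelin genes (15 tested), microglia markers (17), plaque-associated microglia genes (12), interferon genes (16), cytosolic ribosomal protein genes (13) and respiratory chain genes (21) each gave 0 passing members, with medians of -0.15, 0.036, 0.0060, 0.018, -0.032 and 0.00092.

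**Figure D5:**
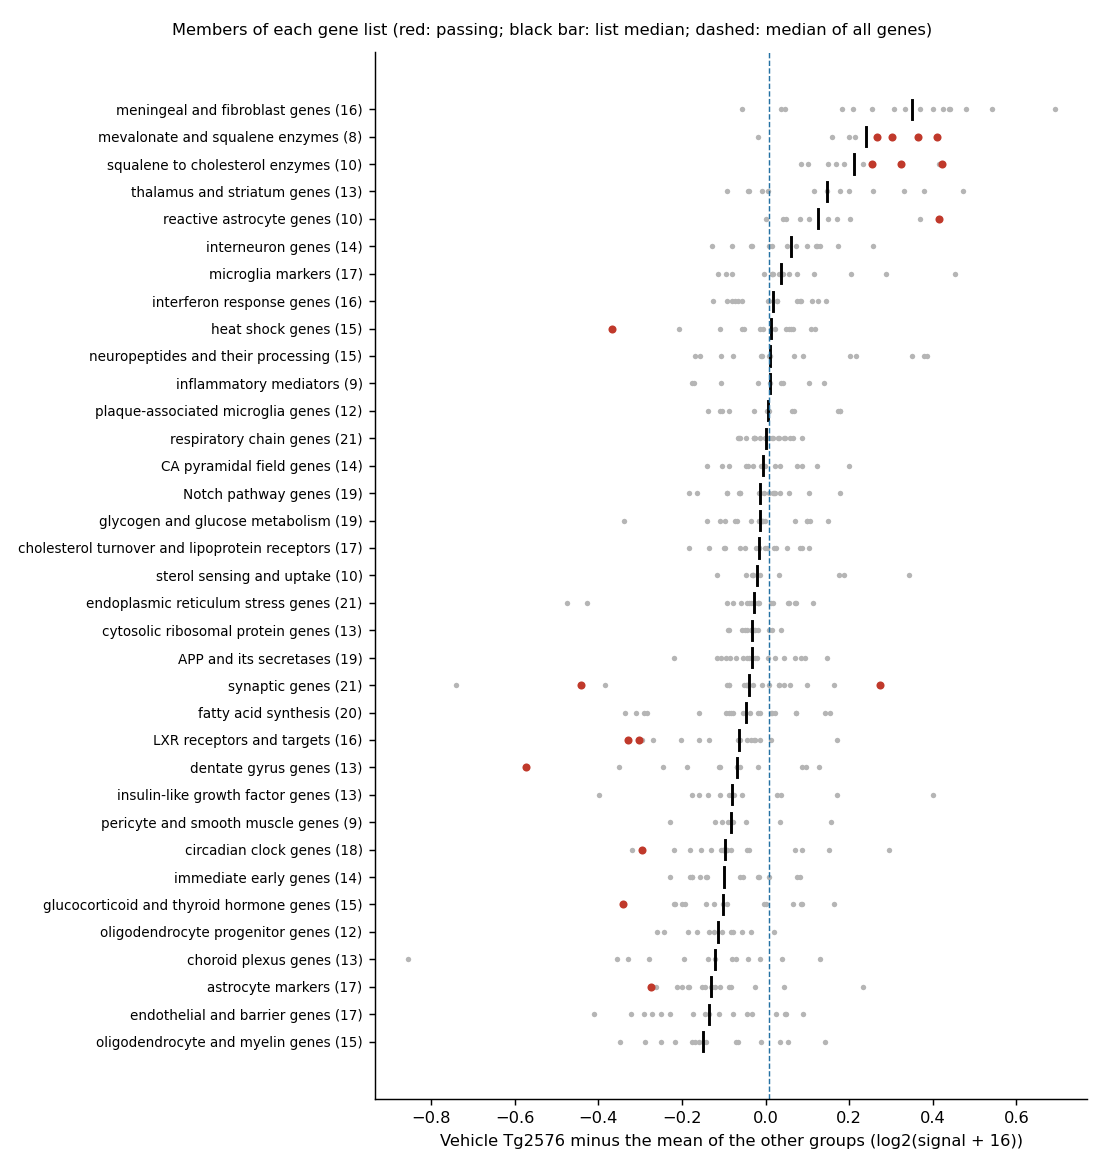
Contrast of vehicle Tg2576 against the mean of the other groups (log2) for the members of 35 gene lists, with the number tested in brackets; red points passed, black bars are list medians and the dashed line is the median of all genes, 0.0089. The meningeal list has the highest median, 0.35, with 0 passing members, while the enzyme lists, at 0.24 and 0.21, hold 4 and 3.

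When the mean levels of the astrocyte, dentate gyrus, meningeal, thalamus and striatum, and choroid plexus lists entered the fit together as covariates, 0 of the 36 genes passed and 2 others did, Rgs10 and Tmem39a. The 7 cholesterol contrasts were then at 0.24 to 0.42, with standard errors of 0.066 to 0.10 in place of 0.042 to 0.061. Fdft1 was at 0.42 (adjusted p = 0.144) and Hsd17b7 at 0.36 (0.0575), while Sqle moved down to 0.31 (0.258) and Fdps to 0.27 (0.285). Ly6g6e went from 0.62 to 0.24, Ttc9c from 0.27 to 0.076 and Slc1a2 from -0.27 to -0.079; Slc1a2 is itself a member of the astrocyte list. In the same fit 3 of the differences from a single group changed sign: Abca1 against wild type went from -0.053 to 0.17, Dio2 against treated animals from -0.062 to 0.0051 and Ttc9c against wild type from 0.24 to -0.0082. With 1 list level at a time 31 to 43 genes passed. Of the 36, 15 kept their call with the astrocyte level, 16 with the dentate gyrus level, 20 with the thalamus and striatum level, 26 with the meningeal level and 36 with the choroid plexus level. Fdft1, Sqle, Hmgcs1, Fdps, Nsdhl and Hsd17b7 were kept with each of the 5, while Idi1 was lost with the astrocyte level (0.29, adjusted p = 0.0639) and Mvk came in. The part of tissue composition in these results was not tested beyond these fits.

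Passing the average contrast does not show a difference from each group, so the larger of both p-values was also tested. By this limma test 0 genes passed, with 480 at an unadjusted p under 0.05; the smallest adjusted p was 0.0685, shared by Hmgcs1 and Sqle. Both passed after quantile normalization, while Epas1 passed with the Gapdh ratio as a covariate. Taken singly, vehicle minus wild type was passed by 30 genes (0.235%) and vehicle minus treated by 36 (0.282%). These comparisons share the vehicle arrays. Of the 36 genes of the average contrast, 10 passed neither.

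How far single animals carried the 36 was read by leaving out each array. The 7 sterol enzymes, Abcg1, Cyp2d22, Per3, Ly6g6e, Tdo2, Ttc9c, Rgs4, Ppp1r16b, Fam98a, Vxn and Camk2a kept their calls in all 33 fits, 18 genes in all. Without vehicle Tg2576 animal 3 the number passing was 23, and 13 of the 36 lost their call. Baalc and Chd4 were lost without that animal alone (adjusted p = 0.0595 and 0.0515), and Abca1 without vehicle animal 2 or 3 (0.051 and 0.0569). S100a10 was lost without any 1 of 3 arrays, Dio2 and Hspa2 of 4, Cbln2 and Dst of 5, Hps6 of 7 and Numa1 of 8. Slc1a2, Prss12 and Tmem169 were lost without any 1 of 12 arrays, Mrpl36 of 15, Epas1 and Polr1d of 17, 1500009C09Rik of 19 and Adcy1 of 23, with adjusted p up to 0.113. Without vehicle animals 3 and 4 together 25 genes passed, 18 of them among the 36; the other 18 had adjusted p of 0.0693 to 0.193. Among the genes that had kept their calls with any 1 array left out, Rgs4 (0.21, adjusted p = 0.0744), Vxn (0.20, 0.072) and Fam98a (0.16, 0.0744) were lost here. Among the other rises, Cbln2 was at 0.27 (0.0693), S100a10 at 0.38 (0.0754), Tmem169 at 0.25 (0.093), Mrpl36 at 0.21 (0.115), Prss12 at 0.20 (0.17) and Polr1d at 0.17 (0.17). Among the falls, Slc1a2 was at -0.29 (0.072), Adcy1 at -0.23 (0.072), Chd4 at -0.25 (0.0744), Abca1 at -0.31 (0.0754), Dst at -0.14 (0.115) and Dio2 at -0.27 (0.143); Baalc, Hspa2 and 1500009C09Rik are given above. The 7 sterol enzymes passed and were at 0.24 to 0.39.

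Other probe sets gave a further reading of the same RNA. Of the 36 genes 23 had another probe set above the filter, and in 20 of these all others shared the sign; in Polr1d, Slc1a2 and Tdo2 at least 1 did not. The 3 other Hmgcs1 probe sets were at 0.30, 0.30 and 0.29 and the other Fdft1 probe set at 0.44. The remaining 13 genes had no other. When all probe sets of a gene were averaged, 37 genes passed and 21 of the 36 kept their call, 6 of the 7 sterol enzymes among them. The 15 lost were Idi1 (0.27, adjusted p = 0.0588), Camk2a (-0.44, 0.0892), Tdo2 (-0.28, 0.102), Dio2 (-0.24, 0.0806), Abca1 (-0.19, 0.255), S100a10 (0.31, 0.135), Slc1a2 (-0.078, 0.809), Ttc9c (0.12, 0.307), Polr1d (0.021, 0.858), Rgs4, Ppp1r16b, Chd4, Dst, Numa1 and Adcy1.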

How the data were processed

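Hippocampal RNA of 33 mice, 11 a group, was read on 33 MOE430 2.0 arrays; the arrays are separate animals. The deposited values are linear intensities, MAS5 signals per the submitters' processing notes, and the 2% trimmed mean of each array was 99.97; the annotation version is not given in the sources used. Signals were tested as log2(signal + 16). Of 45101 probe sets, 34945 named 1 gene; the lowest 40% by mean log2 value were left out, and the probe set of highest mean stood for each gene, leaving 12760 genes. limma 3.58.1 in R 4.3.3 (trend and robust) fitted the 3 groups, with Benjamini-Hochberg adjustment over all genes and a limit of 0.05. Adjusted p-values come from this fit unless another test is named. A difference from each group separately was tested by the larger of both p-values, set to 1 where the signs were opposite. By rule the genes named are the 12 largest rises and 12 largest falls past the limit, up to 4 passing members of each list, the members of the 3 cholesterol lists, and Gfap, Apoe, Abca1, Srebf1, Prnp and App; the rest of the 36 and 4 clock genes were added after their values were seen. The members and lists were chosen with earlier results of these data known, and 36 lists are described by counts and medians with no test. Alternatives changed the pseudocount, filter, normalization, probe set summary, test and covariates, and left out arrays. The number of arrays limits the precision.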

Additional observations from a re-analysis of the deposited data

How the results depend on the processing

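The cause was not tested for any of the changes given here. The 36 genes of the contrast became 65 with the Gapdh ratio as a covariate (23 higher, 42 lower), 2 with all 5 tissue levels as covariates and 22 by an exact rank-sum test. By the rank-sum test 18 of the 36 kept their call, the 7 sterol enzymes among them, and 18 lost it. Those lost included Tdo2 (rank-sum adjusted p = 0.104) and Ppp1r16b (0.0505), which had kept their calls with any 1 array left out. Epas1 (0.109), Dio2 (0.257), Abca1 (0.293), Slc1a2 (0.082) and S100a10 (0.082) were also lost. The labels do not say what a replicate number shares, and same-numbered samples had correlated deviations of -0.10 to 0.22, above 0 in 29 of 33 pairs and over 0.1 in 10; between vehicle and treated Tg2576 all 11 were above 0 (0.041 to 0.19). Not every pair was over 0.1, and by that limit no block was used for the reported values. The limit does not show that same-numbered samples were unrelated, and whether the numbers mark a shared batch was not settled. With the replicate number as a block 57 genes passed (27 higher, 30 lower), of which 35 were among the 36. Leaving out 1 array gave 23 to 50. The split was 23 higher and 9 lower with the astrocyte level, 13 and 20 with the thalamus and striatum level, and 17 and 31 without vehicle Tg2576 animals 3, 4 and 5. Genes apart from each group numbered 0, but 2 after quantile normalization, 1 with the replicate block, 1 with the Gapdh ratio and 0 to 2 with 1 array left out. Of the 36, the 3 that also passed treated minus wild type became 6 with the block, 5 with the Gapdh ratio, 1 without vehicle animals 3 and 4 or 3, 4 and 5, 1 with the astrocyte level, 0 with the dentate gyrus level, 0 with all 5 levels, and 1 to 4 with 1 array left out. The 7 cholesterol calls became 0 with all 5 levels and 7 to 8 with 1 array left out. None of the 36 contrasts changed sign in the settings run; the 3 differences from a single group that did, with all 5 levels, are those of Abca1, Dio2 and Ttc9c given above. The single tissue levels and the fits without animals 3, 4 and 5 were chosen after seeing the data.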
